A study of Homo sapiens with 6 samples.

Results

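Intergenic clusters were the hnRNP A1 cross-linking sites that lay outside every promoter, exon, intron and transcript end of the gene set used for annotation. They were taken as all clusters whose deposited annotation read Intergenic, with the mitochondrial chromosome left out, and numbered 2440 of 16254 clusters over 6 libraries, with 15 mitochondrial ones not counted. The cells were HEK293T, derived from human embryonic kidney, and were transiently transfected with plasmids for myc-tagged hnRNP A1, labeled with 100 μM 4-SU for 16 hours and cross-linked with ultraviolet light, and the tagged protein was pulled down with an anti-myc antibody. In PAR-CLIP the cross-linked 4-SU is read as C in place of T, and a cluster is a short stretch of RNA that carries such changes. The question of the study was whether coupling between the RNA recognition motifs of hnRNP A1 shapes the RNA sites that the protein contacts in cells.

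There were 3 groups of 2 libraries each. A1dm was the monomeric band of the double mutant R75D/R88D, in which salt bridges between the RNA recognition motifs are broken. A1-HMW was the slower band of WT hnRNP A1, which the labels call dimeric and the study only possibly so. A1 was the monomeric band of WT hnRNP A1. All groups shared the cell line, the tag, the antibody and the labeling, and in all of them the tagged protein was expressed from a plasmid on top of the cells' own hnRNP A1.

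hnRNP A1 is an abundant nuclear RNA-binding protein that regulates splicing and binds nascent transcripts as they leave RNA polymerase. The word intergenic refers to a gene set and not to the absence of transcription. RNA polymerase often continues past the end of a gene, and many long noncoding RNAs are expressed in few cell types and enter gene sets late.

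The sequences below are from regions found in 4 or 5 libraries and carrying a run of at least 12 purines (A or G), the feature in which the groups differed most clearly. A further such region, near RP11-346L1.2, is described with its neighbors and its letters are not shown. They were read from the hg19 reference on the strand of the cluster, 5′ to 3′, and the capitals mark the longest purine run.
Past the 3′ end of MRPL14, 5 libraries, chr6:44079677-44079701, minus strand: gactGGAAAGGGGAAAGAGGGAAAc
Farther past MRPL14, 4 libraries, chr6:44065430-44065453, minus strand: GGGAGGAGAAGGGAGAAAAAGAAt
Between SNRNP40 and NKAIN1, 4 libraries, chr1:31714401-31714422, minus strand: agtGGAGAGGAAGGGAAAGAAt
Near PIGK, 4 libraries, chr1:77689713-77689734, plus strand: gaaactGAAGGGAGAGGGAGAc
Within ENSG00000287621, 4 libraries, chr2:184236765-184236789, plus strand: AAAGAGGAGAGAAGGAAGAtggagc
Past the 3′ end of RPL39, 4 libraries, chrX:118902936-118902958, minus strand: gaatGAAGGGAAGGAGGGAAGAt

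The next set shows sites that neighbored each other. Their purine runs were a feature of nearly all A1 clusters and not particular to neighbors. These sites lay in order along the plus strand of chromosome 19 in and past EMC10, which encodes a subunit of the endoplasmic reticulum membrane protein complex, and of chromosome 5 past SREK1, which encodes a splicing regulator.
EMC10 group, within the gene, chr19:50992104-50992121: agtGAGAAAAAGGAGGGt
EMC10 group, within the gene, chr19:50992396-50992425: AGGGAAGAAGGAAAGGAGAAAGGAAAAAAt
EMC10 group, past the 3′ end, chr19:50995422-50995446: aggagtGAGAGGAAAGAGGAGAGGc
EMC10 group, past the 3′ end, chr19:51001529-51001550: agatGGGGAGAAAAGGGAGAGt
SREK1 group, chr5:65512520-65512545: gactAGAAGGAAGAGAAGGAGGGGtt
SREK1 group, chr5:65535257-65535279: GGAAGGAGGGAAAAGAGGAAAGt
SREK1 group, chr5:65573211-65573240: aaatAAAGGAAAGAAAGGAAGGAAGGAAAc

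Clusters without such a run were few in A1 and the majority in A1dm. A few of them lay beside letters that match the promoter elements of transfer RNA genes. The example below is from A1dm replicate 2, on the plus strand of chromosome 6, and the capitals mark the B box, written GGTTCNANNCC.
Cluster over a B box, chr6:28180869-28180894: cacgtgGGTTCGAATCCcatcctcgt

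The deposited lists differed in length, and their score column was 0 in every line, so the read depth behind a cluster was unknown. Intergenic clusters numbered 27 and 85 in A1dm, 68 and 119 in A1-HMW, and 835 and 1306 in A1. All shares below rest on these numbers, and their 95% Wilson intervals cover counting error only. Absence from a short list therefore does not show that the protein left a region unbound.

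Intergenic clusters made up about the same small share of every library. Among the clusters left after removal of the mitochondrial ones, they were 11.8% of 228 and 14.4% of 590 in A1dm, 10.1% of 670 and 13.8% of 864 in A1-HMW, and 14.4% of 5803 and 16.1% of 8099 in A1. The intervals ran from 8.27% to 16.7% and from 11.8% to 17.5% in A1dm, from 8.09% to 12.7% and from 11.6% to 16.2% in A1-HMW, and from 13.5% to 15.3% and from 15.3% to 16.9% in A1. Both A1-HMW libraries lay below both A1 libraries, whereas A1dm overlapped with each of the other groups.

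**Figure D1:**
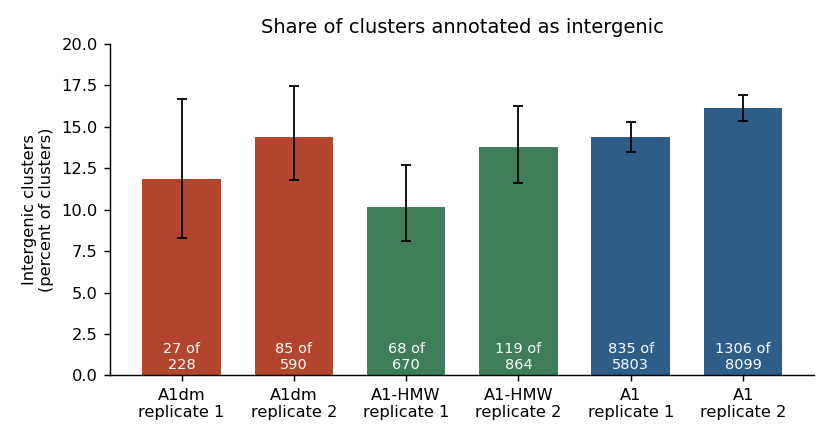
Share of clusters annotated as intergenic (y axis, percent) in each library (x axis). Bars give the share, error bars the 95% Wilson interval, and the numbers in the bars the intergenic clusters of all clusters without the mitochondrial ones; the shares lie between 10.1% and 16.1%.

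The mean share was 13.1% ± 1.81 in A1dm, 11.96% ± 2.56 in A1-HMW and 15.3% ± 1.23 in A1 (SD, n = 2 each). A1dm minus A1 was -2.13 percentage points (exact two-sided permutation test over libraries, p = 0.667), A1-HMW minus A1 was -3.30 (p = 0.333 by the same exact test) and A1dm minus A1-HMW was 1.16 (exact p = 0.667). With 2 libraries against 2 this test cannot give a p below 0.333, so no difference between groups in this report can pass a threshold of 0.05. Introns held most of the other clusters, from 43.7% in A1dm replicate 2 to 60.6% in A1 replicate 1.

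The distance from an intergenic cluster to the nearest annotated transcription start site (TSS) was mostly over 5 kb. Over all 2440 clusters the median was 13805 nt, the shortest distance was 1026 nt and the longest 390547 nt. The median was 14760 and 15074 nt in A1dm, 18501.5 and 12083 nt in A1-HMW, and 13373 and 13876.5 nt in A1. Both A1dm medians lay above both A1 medians by a small margin (difference of means 1292.25 nt, exact p = 0.333), and the A1-HMW replicates lay on either side of the other groups.

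**Figure D2:**
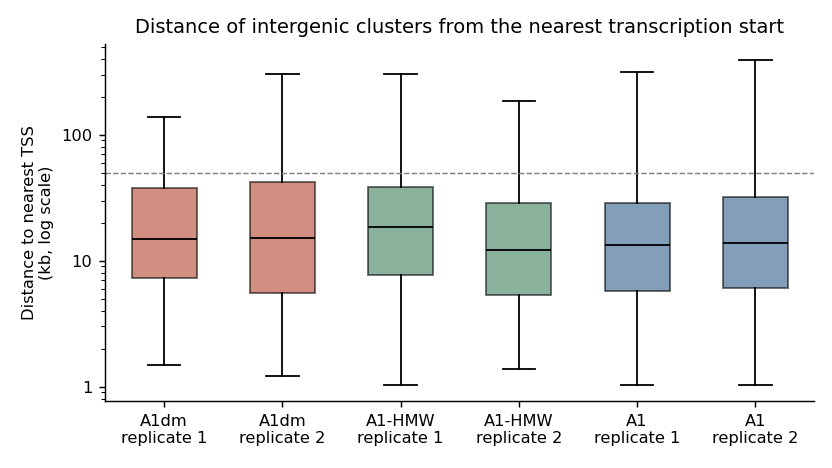
Distance from intergenic clusters to the nearest TSS (y axis, kb, log scale) in each library (x axis). Lines give the median, boxes the quartiles, whiskers the lowest and highest value and the dashed line 50 kb; the medians lie between 12083 and 18501.5 nt.

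A1dm lay farther from the other groups in the tail than at the median, and the A1-HMW replicates again lay on either side of A1. Clusters over 50 kb from a TSS were 22.2% and 21.2% in A1dm (6 and 18 clusters), 17.6% and 11.8% in A1-HMW (12 and 14), and 12.1% and 13.2% in A1 (101 and 173). Both A1dm libraries lay above all others, by 9.03 percentage points over A1 and 6.99 over A1-HMW in the means (exact p = 0.333 each). The interval of A1dm replicate 1 ran from 10.6% to 40.8%, that of A1dm replicate 2 from 13.8% to 31.0%, and those of A1 from 10.1% to 14.5% and from 11.5% to 15.2%. Upstream of the TSS lay 51.9% and 43.5% of A1dm clusters, 50% and 58.0% of A1-HMW clusters and 52.6% and 53.2% of A1 clusters. Over all clusters, most of them from A1, the share was 52.8%. Regions found in several libraries count more than once in it, so no interval is given.

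The nearest TSS was that of a protein-coding gene for 1045 of the 2440 clusters (42.8%), of a pseudogene for 499 (20.5%) and of a long intergenic noncoding RNA for 413 (16.9%). A pseudogene was the nearest for 33.3% and 30.6% of A1dm clusters, 26.5% and 21.0% of A1-HMW clusters and 19.3% and 19.9% of A1 clusters. The groups did not overlap in this share, which was not tested. The farthest A1dm and A1-HMW clusters were the same region, chr13:104401468-104401487, 304160 nt from ATP6V1G1P7, found in A1dm replicate 2, A1-HMW replicate 1 and A1 replicate 2. The farthest A1 cluster, chr18:38443320-38443343, lay 390547 nt from RNU7-145P in A1 replicate 2 and carried a run of 20 purines.

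A later gene set accounted for part of the clusters. In GENCODE release 44, placed on the same build, 374 of the 2440 clusters (15.3%) lay within a gene on their own strand, 107 (4.39%) only within a gene on the opposite strand, and 1959 (80.3%) in no gene. Of the 374, 244 lay in long noncoding RNA genes and 122 in protein-coding genes. The share within a gene on the own strand was 22.2% and 12.9% in A1dm, 13.2% and 18.5% in A1-HMW, and 14.9% and 15.5% in A1, so the A1dm and A1-HMW replicates fell on both sides of A1.

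The genes of that set with the most intergenic clusters were ENSG00000287621 with 11, EMC10 with 9, DLEU2 with 8 and LINC00326 with 7. DLEU2 is a long noncoding RNA that hosts a pair of microRNAs lost in chronic lymphocytic leukemia. It held clusters in 5 libraries, 0 and 1 in A1dm, 2 and 1 in A1-HMW and 2 and 2 in A1. ENSG00000287621 held 1 and 0 in A1dm, 1 and 0 in A1-HMW, and 3 and 6 in A1.

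Clusters also lay often just past genes. The 10 kb after the 3′ end of a gene on the same strand held 604 clusters (24.8%), and the 10 kb before the start of one held 381 (15.6%). Here and below, only clusters in no GENCODE gene on either strand were counted, and the shares are of all intergenic clusters. The share after a 3′ end was 25.9% and 22.4% in A1dm, 19.1% and 17.6% in A1-HMW, and 27.1% and 24.3% in A1. The share before a start was 14.8% and 9.41%, 10.3% and 24.4%, and 15.9% and 15.3% in the same order, so the first was the larger in 5 of 6 libraries and the smaller in A1-HMW replicate 2. These shares were not compared with those of random positions. Within the first kilobase past a 3′ end there were 18 clusters (0.738%), since the annotation gives sites next to a transcript end a class of their own.

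Intergenic clusters were spread over all autosomes and X. They lay on 14 and 22 chromosomes in A1dm, 22 and 23 in A1-HMW and 23 in each A1 library. In A1 the density per Mb was highest on chromosome 1 in replicate 1 (97 clusters, 0.389 per Mb) and on chromosome 5 in replicate 2 (111 clusters, 0.614 per Mb). It was lowest on chromosome 16 in both (14 clusters, 0.155 per Mb, and 19 clusters, 0.210 per Mb), the Y chromosome aside. In A1 replicate 2, 26.3% of the clusters on chromosome 5 were intergenic, against 16.1% over all chromosomes, and in A1 replicate 1 the share on chromosome 5 was 18.5%.

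**Figure D3:**
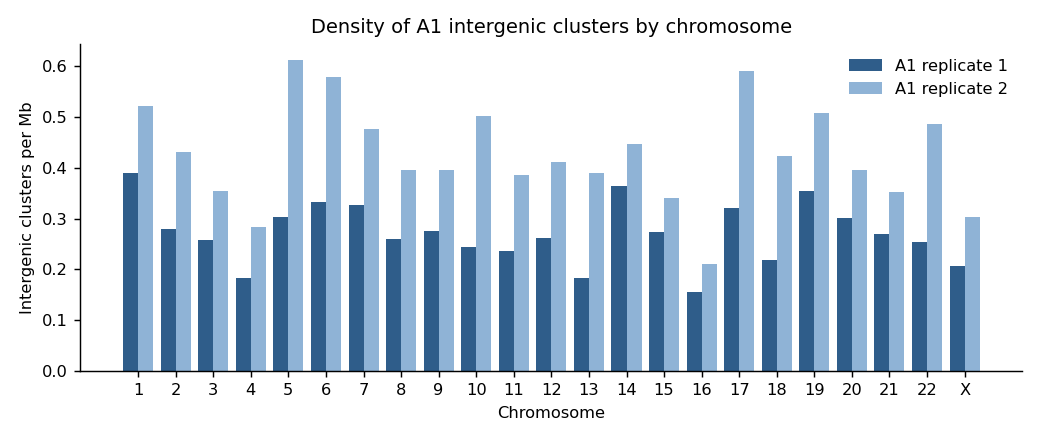
Density of intergenic clusters (y axis, clusters per Mb) on each autosome and X (x axis) in A1 replicate 1 and A1 replicate 2. Chromosome 16 is lowest in both libraries, at 0.155 and 0.210 per Mb, and chromosome 5 is highest in replicate 2, at 0.614 per Mb.

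The other groups held too few clusters for a density. A1dm had most on chromosome 1 in replicate 1 (5 of 27) and on chromosome 6 in replicate 2 (9 of 85). Chromosome 13 held 8 of the 68 clusters of A1-HMW replicate 1, and chromosome 1 held 18 of the 119 of A1-HMW replicate 2. Each A1dm library had 1 cluster on the Y chromosome, and the other libraries had 0. Both belonged to the same region, and whether its reads originated on that chromosome was not tested. The strands were used about evenly, with between 50.5% and 59.3% of the clusters of a library on the plus strand.

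Intergenic sites in A1 that lay near each other were nearly always on the same strand. Another intergenic cluster lay within 50 kb of 0% and 4.71% of A1dm clusters, 2.94% and 3.36% of A1-HMW clusters, and 28.6% and 34.4% of A1 clusters. For A1dm replicate 1 the count was 0 of 27, for which a limit of 3 counts gives a share of up to 11.1% and the Wilson interval one of up to 12.5%. The other clusters more often had a neighbor of their own kind, in 3.98% and 10.7% of cases in A1dm, 14.5% and 16.9% in A1-HMW, and 47.1% and 54.7% in A1. Of the neighboring pairs, 155 of 160 (96.9%) in A1 replicate 1 and 339 of 350 (96.9%) in A1 replicate 2 were on the same strand, and among all other clusters of these libraries the share was 85.4% and 82.7%.

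The share with a neighbor moves with the number of clusters in a library, and the group differences of -29.1 percentage points for A1dm minus A1 and -28.4 for A1-HMW minus A1 (exact p = 0.333 each) cannot be told apart from it. Counted as pairs within 50 kb per 1000 possible pairs, the values were 0 and 0.560 in A1dm, 0.439 and 0.285 in A1-HMW, and 0.460 and 0.411 in A1. On that scale A1-HMW overlapped with A1, and the A1dm values, which rest on 0 and 2 pairs, lay on either side of it. In A1 the other clusters had 0.151 and 0.146 pairs per 1000 possible, fewer than the intergenic ones, although more of them had a neighbor. The A1 libraries held 106 and 187 groups of clusters chained within 50 kb. Of these, 21 and 48 had at least 3 clusters, and the largest had 6 and 7. A1dm had 0 and 2 groups and A1-HMW had 1 and 2, each a pair.

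Over all 6 libraries the clusters merged into 1882 regions, and the group with the most regions was the one in and past EMC10, shown above. It held 9 regions within 9.45 kb (chr19:50992101-51001550), all on the plus strand and all with a purine run of at least 12. Of the 9 regions, 5 lay within EMC10 as GENCODE has it and 4 lay from 1294 to 7401 nt past its 3′ end. Regions of the group were found once in A1dm replicate 2, once in A1-HMW replicate 2, 6 times in A1 replicate 1 and 7 times in A1 replicate 2.

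Next came 5 groups of 6 regions each. The group past SREK1 (chr5:65512520-65573240) lay 33077 to 93768 nt past its 3′ end, all on the plus strand. A second group on chromosome 5 (chr5:65623279-65723297) had 5 regions on the plus strand, each with a purine run, and 1 on the minus strand without one, which was found in A1dm replicate 2 alone. On chromosome 7 (chr7:66839906-66925984) the 6 regions lay 11969 to 98025 nt past STAG3L4, 5 of them in A1 replicate 2 and 1 in A1 replicate 1.

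The remaining groups lay on chromosome 8. The regions past EIF3H (chr8:117560484-117643260), which encodes a subunit of a translation initiation factor, lay 11109 to 93860 nt past its 3′ end, all on the minus strand. The others (chr8:37533378-37551618) all lay on the minus strand. Their nearest TSS was that of RP11-346L1.2 for some and that of ZNF703, a zinc finger gene, for the rest. The region found in 4 libraries (chr8:37533378-37533405) lay 1489 nt from the TSS of RP11-346L1.2. Of this group, A1dm replicate 1 and A1-HMW replicate 2 each held 1 region. A1 replicate 1 held 4 and A1 replicate 2 held 6. In these 6 groups, 38 of 39 regions carried a purine run, and 0 clusters of any other annotation lay between their regions. Nearly all of these regions were found in A1, where 98.0% and 95.9% of all intergenic clusters carried such a run. The run was thus not particular to the groups.

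Recurrence between replicates was low in A1dm and A1-HMW and higher in A1. A cluster recurred when the other replicate held one that overlapped by at least 1 nt on the same strand. In A1dm this was so for 4 of 27 and 4 of 85 intergenic clusters (14.8% and 4.71%), and for 14.5% and 5.59% of clusters of every annotation. In A1-HMW it was so for 5 of 68 and 5 of 119 (7.35% and 4.20%), beside 20.7% and 16.1% of clusters of every annotation. In A1 it was so for 409 of 835 and 409 of 1306 (49.0% and 31.3%), beside 57.4% and 41.1%.

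Against the other clusters of the same library, intergenic clusters recurred less in A1-HMW and A1 by more than their counting intervals. In A1-HMW the intervals of the intergenic shares ran to 16.1% and 9.46%, and those of the other clusters began at 19.1% and 15.4%. In A1 they ran to 52.4% and 33.9%, and those of the other clusters began at 57.4% and 41.8%. In A1dm the intervals overlapped. No test was run on these shares, since both replicates of a pair share the same regions.

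**Figure D4:**
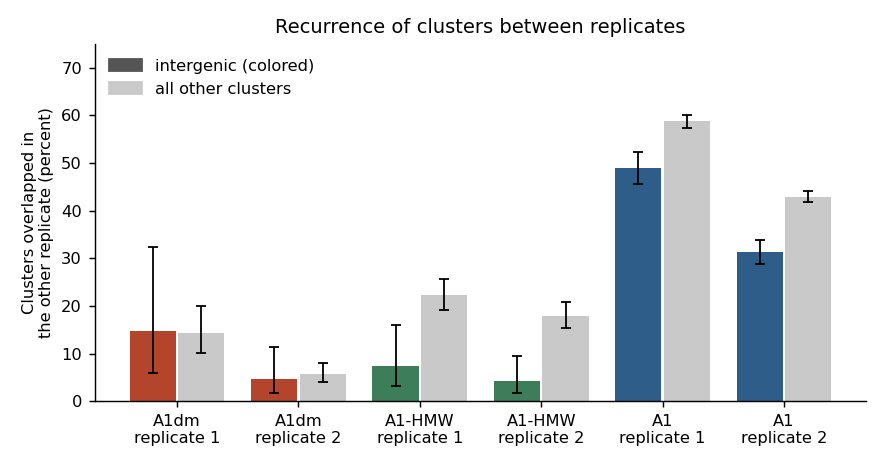
Share of clusters overlapped by a cluster of the other replicate of the group (y axis, percent) in each library (x axis), for intergenic clusters (colored bars, left of each pair) and all other clusters (grey bars, right). Error bars are 95% Wilson intervals; the intergenic share lies below the other one in A1-HMW and A1 and is close to it in A1dm.

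Per group, regions found in both replicates were 4 of 108 in A1dm, 5 of 182 in A1-HMW and 409 of 1732 in A1, or 3.70%, 2.75% and 23.6%. For the other clusters the shares were 4.28%, 11.05% and 33.0% in the same order. A replicate with more clusters overlaps more of any other list, and the part of cluster number in these values was not tested.

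Of the 1882 regions, 1416 were found in 1 library, 389 in 2, 65 in 3, 9 in 4, 3 in 5 and 0 in 6. By group, 67 regions were found in A1dm alone, 78 in A1-HMW alone and 1610 in A1 alone. A1dm and A1-HMW shared 5 without A1, A1dm and A1 shared 23, A1-HMW and A1 shared 86, and 13 were found in all 3 groups. A1 overlapped 36 of the 108 A1dm regions (33.3%, Wilson bounds 25.2% and 42.7%) and 99 of 182 in A1-HMW (54.4%, Wilson bounds 47.1% and 61.5%).

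In single libraries, 48.1% and 29.4% of A1dm clusters and 55.9% and 53.8% of A1-HMW clusters overlapped an A1 cluster. Intergenic clusters overlapped each A1 library in a smaller share of cases than the other clusters did. For A1dm the overlap with A1 replicate 1 was 37.04% and 20% for intergenic clusters, against 50.2% and 38.02% for the others, and with A1 replicate 2 it was 40.7% and 27.1%, against 51.2% and 43.0%. For A1-HMW it was 36.8% and 43.7%, against 60.3% and 59.5%, with A1 replicate 1 and 52.9% and 44.5%, against 65.3% and 65.6%, with A1 replicate 2. These shares were not tested. Of the intergenic clusters that overlapped no A1 cluster, 28.6% and 21.7% in A1dm and 23.3% and 27.3% in A1-HMW still lay within 50 kb of an intergenic A1 cluster. Most of these neighbors were on the same strand, in 4 of 4 and 11 of 13 cases in A1dm and in 7 of 7 and 13 of 15 in A1-HMW.

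The 3 regions found in 5 libraries differed in sequence. The region 1487 nt past MRPL14, which encodes a mitochondrial ribosomal protein, was found in both A1dm libraries, in A1-HMW replicate 2 and in both A1 libraries, and had a run of 20 purines in 25 nt. A region on chromosome 4 (chr4:182129503-182129528), 29201 nt from the pseudogene RP11-665C14.1, was missing in A1dm replicate 1 alone and held 42.3% purines. A region near HPX (chr11:6449425-6449443), 33197 nt past SMPD1, was missing in A1-HMW replicate 2 alone and held 55.6% purines in its core. The longest purine runs of these last regions were 2 and 3 nt. The lists hold no reads, so whether the reads behind these and the other recurrent regions without a purine run originated there was not tested.

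Of the 7 regions found in 4 libraries and named here, 6 carried a run of 15 to 23 purines. There were 9 regions in 4 libraries, and those in all 3 groups were taken first, so their presence in each group follows from the choice. All 7 were found in both A1 libraries and in 1 library each of A1dm and A1-HMW. A second MRPL14 region lay 15735 nt past that gene, 1 lay 17993 nt past SNRNP40, which encodes a protein of the U5 snRNP, and 1 lay 17509 nt past RPL39, which encodes a ribosomal protein. The region on chromosome 10 (chr10:133740684-133740709), 7255 nt upstream of PPP2R2D, a phosphatase regulatory subunit gene, had a run of 11.

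Of the regions found in both replicates, 2 of 4 in A1dm and 3 of 5 in A1-HMW were also found in A1. The remaining ones, found in no A1 library, lacked purine runs of 12. On chromosome 1 a region (chr1:80076501-80076524) 89746 nt from the pseudogene ADH5P2 was found in both A1dm libraries and A1-HMW replicate 1, with a longest run of 7; the origin of its reads was likewise not tested. The only other A1dm region of this kind was the one placed on the Y chromosome, whose read origin was not tested either. It is not described further. In both A1-HMW libraries there was a region 41815 nt from MOBP (chr3:39585510-39585534), also found in A1dm replicate 2, and one 16427 nt from RNF125 (chr18:29581897-29581918). Their longest purine runs were 4 and 9.

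The clearest difference between the groups was in the purine runs. A run of at least 12 purines was found in 10 of 27 and 27 of 85 intergenic clusters of A1dm (37.04% and 31.8%), in 45 of 68 and 87 of 119 of A1-HMW (66.2% and 73.1%), and in 818 of 835 and 1253 of 1306 of A1 (98.0% and 95.9%). The 3 groups did not overlap. In windows of the same length 500 nt upstream or downstream of the clusters, the share was between 0% and 5.88%. Every intergenic cluster held a T, as the calling by T-to-C change requires.

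The mean share was 34.4% ± 3.73 in A1dm, 69.6% ± 4.90 in A1-HMW and 97.0% ± 1.43 in A1 (SD, n = 2 each). A1dm minus A1 was -62.6 percentage points, A1-HMW minus A1 was -27.3 and A1dm minus A1-HMW was -35.2, each with p = 0.333 by the exact permutation test, the smallest it can give. The median of the longest purine run was 6 nt in both A1dm libraries, 16 and 18 nt in A1-HMW and 19 nt in both A1 libraries. Purines made up 67.5% and 68.1% of the bases in A1dm, 82.0% and 83.9% in A1-HMW, and 90.8% and 90.7% in A1. The mean length of the clusters was 22.8 and 23.5 nt in A1dm, 24.2 and 24.7 nt in A1-HMW, and 24.5 and 24.97 nt in A1. Both A1dm libraries were thus shorter than all others, and the part of length in the purine share was not tested.

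**Figure D5:**
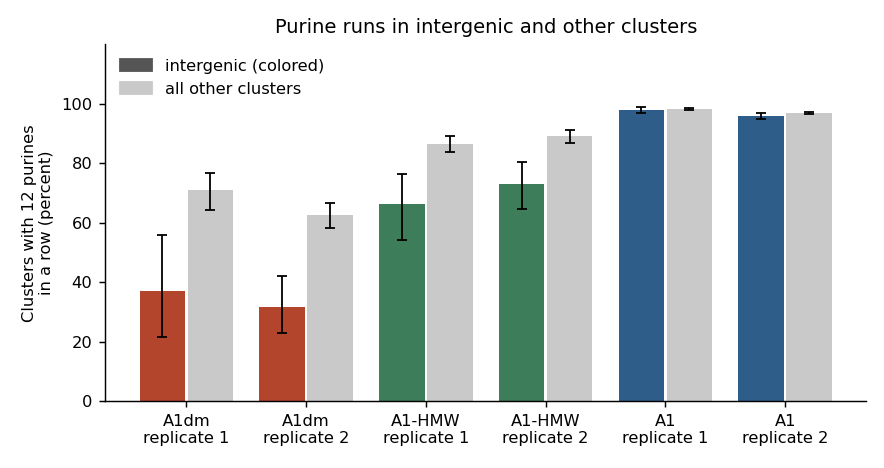
Share of clusters with at least 12 purines in a row (y axis, percent) in each library (x axis), for intergenic clusters (colored bars, left of each pair) and all other clusters (grey bars, right). Error bars are 95% Wilson intervals; the intergenic share is 37.04% and 31.8% in A1dm, 66.2% and 73.1% in A1-HMW and 98.0% and 95.9% in A1.

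In every library the run was less frequent in intergenic than in other clusters, though in A1 their Wilson intervals overlapped. The other clusters carried it in 71.0% and 62.5% of cases in A1dm, 86.5% and 89.3% in A1-HMW, and 98.1% and 96.8% in A1. The difference, intergenic minus other, was -34.0 and -30.7 percentage points in A1dm, -20.4 and -16.2 in A1-HMW, and -0.184 and -0.832 in A1. It averaged -17.0 and was negative in 6 of 6 libraries (exact sign-flip permutation test over libraries, two-sided, p = 0.0313, the smallest that 6 libraries allow, and 0.0938 after Benjamini-Hochberg adjustment over 3 measures). It did not pass a threshold of 0.05 after adjustment.

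Purine content, intergenic minus other, averaged -6.47 percentage points and was lower in 4 of 6 libraries (exact sign-flip p = 0.125, adjusted 0.125). Mean length averaged -0.296 nt and was lower in 5 of 6 (exact sign-flip p = 0.0938, adjusted 0.125). The average purine difference was made up by A1dm and A1-HMW, as the A1 values were 0.103 and 0.0107.

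Within A1dm and A1-HMW, the run went with overlap with A1. Among clusters that overlapped an A1 cluster, 9 of 13 and 19 of 25 in A1dm carried the run (69.2% and 76.0%), against 1 of 14 and 8 of 60 of those that did not (7.14% and 13.3%). In A1-HMW it was in 86.8% and 90.6% of the overlapping clusters, against 40% and 52.7% of the rest. Within A1, the clusters that recurred in the other A1 library carried it in 99.0% of cases in both libraries, against 96.9% and 94.5% of those that did not. The A1 clusters themselves nearly all carried the run, so overlap with A1 and the run are not independent of each other.

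The purine share varied little with distance from a TSS in A1, where it was 98.0% at 1 to 5 kb (451 of 460 clusters), 95.01% at 5 to 10 kb (362 of 381), 97.0% at 10 to 50 kb (995 of 1026), 97.1% at 50 to 100 kb (170 of 175) and 93.9% beyond (93 of 99). In A1-HMW it was 77.5%, 68.6%, 66.3%, 85.7% and 66.7% in the same order, with no trend. In A1dm it was 47.8% (11 of 23), 47.4% (9 of 19), 32.6% (15 of 46), 0% (0 of 15) and 22.2% (2 of 9). The A1dm clusters beyond 50 kb thus held few runs, on small numbers and with no test.

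Short purine-only motifs were least frequent in A1dm. GAGGAA was found in 3.70% and 11.8% of A1dm clusters, 27.9% and 29.4% of A1-HMW clusters, and 33.3% and 32.5% of A1 clusters. AGGAAG, which overlaps it and also lies within purine runs, was found in 7.41% and 12.9%, 33.8% and 28.6%, and 35.2% and 31.0% in the same order, so A1-HMW and A1 overlapped. Among the other clusters GAGGAA was also least frequent in A1dm, at 20% and 24.2%. It was in 30.4% and 35.0% of them in A1-HMW and in 34.4% and 33.2% in A1. TAGGG, a core of the classical hnRNP A1 binding motif, was rare in the intergenic clusters of all groups, in 3.70% and 1.18% of A1dm clusters, 0% and 3.36% of A1-HMW clusters (0 of 68, for which 3 counts give a limit of 4.41%), and 2.63% and 2.68% of A1 clusters. In the windows 500 nt away it was found in 0% to 2.35%.

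Exact copies of intergenic clusters elsewhere in the genome were rare. Of clusters of at least 16 nt, between 0% and 2.35% in a library had their exact sequence at another place. The study describes clustering of uniquely mapped reads, which by itself favors a low share. Inexact copies were not counted, so these values do not show where the reads originated. The detailed annotation column, which can name repeats, read Intergenic for each of the 2440 clusters, so it gave nothing further on them and repeat classes were not described.

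A few clusters without a purine run lay beside paired A and B boxes, the internal promoter elements of transfer RNA genes, which were searched on the cluster's strand in the cluster and 100 nt on each side. Paired boxes were found for 4 of 112 clusters in A1dm, 1 of 187 in A1-HMW and 1 of 2141 in A1, at 6 different regions. By library these were 2 of 27 and 2 of 85 in A1dm, 1 of 68 and 0 of 119 in A1-HMW, and 0 of 835 and 1 of 1306 in A1. For the other clusters the numbers were 2 of 200 and 1 of 504 in A1dm and 5 of 602 and 2 of 745 in A1-HMW. In A1 they were 1 of 4967 and 2 of 6789. The A1dm clusters lay on chromosomes 1, 6, 13 and 14, and the nearest TSS of the one on chromosome 6, shown above, was that of TOB2P1 at 5530 nt. A match of this kind describes the letters of the window and not a transcript.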

How the data were processed

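Each of the 6 PAR-CLIP libraries was treated as 1 sample of its group. The study's text describes 2 independent experiments that each yielded the 3 bands. According to the methods, the authors trimmed adapters with BBduk, removed reads under 10 nt and ribosomal RNA, mapped the rest with STAR, used wavClusteR for T-to-C changes and called the paper's peaks with PARalyzer, which were not used here. The submitters' processing notes name Bowtie and hg19. The headers of the deposited lists name wavClusteR clusters annotated by HOMER with Ensembl release 87. Tool versions are not given in the sources used here.

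The deposited score of every cluster was 0 and gave no depth. The deposited coordinates and distances to the TSS were used as given, except for the start, which was taken from the identifier of the cluster because the listed one was larger by 1 nt in 100% of lines. The deposited annotation separated intergenic clusters from all others. The authors' choice of nearest gene was used only for the nearest TSS.

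Sequences, gene positions and copies were read from the GRCh37 genome and GENCODE release 44 lifted to it, the build of the files. Clusters were merged into regions by overlap of at least 1 nt on the same strand over all libraries. The B box was searched as GGTTCNANNCC and the A box by its consensus, 25 to 80 nt before it.

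Groups were compared over libraries by the exact two-sided permutation test, and intergenic with other clusters by the exact sign-flip test over the 6 libraries. Shares have 95% Wilson intervals. The overlap, merging and neighbor steps were checked on simulated intervals, and the permutation and sign-flip tests on values with a known result. The regions named were the 10 in most libraries (ties went by number of groups, then chromosome and start, which left out 2 regions in 4 libraries), those in both libraries of A1dm or A1-HMW and in no A1 library, the 6 groups with most regions and the farthest cluster of each group. In addition, the 4 genes of the later annotation with most clusters and the paired boxes were chosen after their values were seen. Members and lists were chosen with earlier results of these data known. Alternatives concerned the denominator, the gene set, the distance measure, the window, the overlap, the run length, the start, the replicate block and leaving out each library. Comparisons of repeat classes could not be run. Some sequences are not reported here. Python 3.11.15, pandas 2.3.3, NumPy 2.4.6, SciPy 1.17.1 and Matplotlib 3.10.9 were used.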

Additional observations from a re-analysis of the deposited data

Results flagged for a closer look

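The purine content of intergenic clusters, set against that of the other clusters of the same library, went in opposite directions between groups. Intergenic minus other was -15.9 and -12.1 percentage points in A1dm and -5.96 and -4.98 in A1-HMW, against 0.103 and 0.0107 in A1. The difference between the groups was not tested, and the positive A1 values were under 1 percentage point.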

How the results depend on the processing

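Of 138 alternatives over 21 results, 129 kept the call of the value reported, and 9 reversed its direction. The 129 include the replicate block for each group difference, which cannot change a direction. For differences the call was the direction. For recurrence it was lying within the Wilson interval of the value reported, and for the share on chromosome 1 within the SD of the replicates. No group comparison could pass the threshold under any of them. All the reversals but 1 concerned A1dm minus A1-HMW. The intergenic share (1.16) became -1.31 percentage points when clusters in no GENCODE gene on their own strand were counted. The median distance (-375.25 nt) became 246 nt over clusters in no GENCODE gene, an alternative chosen after seeing the data, and the difference was 6.99 percentage points as the share over 50 kb and 0.0466 as the mean log10 distance. The cause was not tested.

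Leaving out each library in turn moved the intergenic share from -3.42 to -0.850 for A1dm minus A1, from -5.11 to -1.48 for A1-HMW minus A1 and from -0.649 to 2.98 for A1dm minus A1-HMW, which was -0.119 without A1dm replicate 2 and -0.649 without A1-HMW replicate 1. The median distance moved from 1040.5 to 1544 nt, from -1541.75 to 4876.75 nt and from -3584.5 to 2834 nt in the same order, with -1541.75 and 2834 nt without A1-HMW replicate 1. The share with a neighbor within 50 kb moved from -32.0 to -26.3, from -31.2 to -25.5 and from -3.15 to 1.55, the last without A1dm replicate 1. The purine run share moved from -65.2 to -59.9, from -30.8 to -23.8 and from -38.7 to -31.8, and intergenic minus other from -20.4 to -13.7.

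The study's text ties the 3 bands to 2 experiments, but the labels do not say that equal replicate numbers mark the same experiment, and 2 pairs cannot show it. Taking the replicate number as a block leaves a difference of means the same by definition, so only its p can move. For the purine run differences of -62.6 (A1dm minus A1), -27.3 (A1-HMW minus A1) and -35.2 (A1dm minus A1-HMW), p was 0.5 each. That was by the exact sign-flip test over 2 pairs, the smallest it can give. The block therefore could not change a call. Alternatives on repeat classes were not run, since the detailed annotation names none. Without reads, depth limits every count.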
